A study of Mus musculus with 158 samples.

Results

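The neurons described here are 14 single cells of the CA1 field of the mouse hippocampus, sorted by their own level of Gad1 RNA. They were taken from the 15 CA1 neurons of acute slices, which came from 17 of the 158 deposited libraries of the series after libraries with a repeated title were summed. The cells were chosen by Gad1 alone. The Gad1-positive group held 3 cells with at least 50 Gad1 counts per 1000000 counts of the cell (CPM), and the Gad1-negative group held 11 cells below 5 CPM. The remaining cell lay between these limits and was left out. All 15 cells were labelled neurons of untreated C57/BL6/N mice. They were collected by patch pipette, and their polyA RNA was amplified in 3 rounds before library preparation. The labels give neither the age or number of the animals nor which cells share an animal. Each group therefore counts as 1 sample, and the differences below are descriptions of these cells without a test.

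Gad1 encodes a glutamate decarboxylase, an enzyme that makes the inhibitory transmitter GABA from glutamate. In CA1, GABA is made by scattered interneurons, which differ in their peptides, calcium-binding proteins, potassium channels and the part of the pyramidal cell they contact. The principal cells of the field are pyramidal neurons, which load glutamate into vesicles with Slc17a7 and carry genes such as Camk2a, Neurod6, Mpped1 and Fibcd1. An interneuron is usually recognised by several GABA genes together: a decarboxylase (Gad1 or Gad2) with the vesicular carrier Slc32a1, for example.

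Total counts were 7910562 in cell 20, 4669647 in cell 35 and 4125369 in cell 3, which are the Gad1-positive cells, against 535369 to 14594389 in the Gad1-negative cells. Genes with at least 1 count numbered 3657 to 5072 in the Gad1-positive cells and 1614 to 6660 in the Gad1-negative cells, so depth and gene number overlapped between the groups. Of 20 pan-neuronal markers, 14 to 16 were at 10 CPM or more in the Gad1-positive cells and 4 to 15 in the Gad1-negative cells. Gad1-negative cell 25 went furthest against its label: its pan-neuronal markers summed to 149.7 CPM and its 14 microglial markers to 15039.5 CPM. Basecalling differed between libraries, with cells 20 and 35 from bcl2fastq2 and cell 3 from bcl2fastq 1.8.4, so that each program has its own Gad1-positive cells.

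Gad1 itself, on chromosome 2 at 70561303 to 70602014 (mm10), spanned a wide range within the positive group. Cell 20 held 49794 Gad1 counts, which is 6295 CPM (exact Poisson 95% interval 6239 to 6350.2, counting error only). Cell 35 held 662 CPM and cell 3 held 110.5 CPM, the lowest value above the limit of 50 CPM. The highest Gad1-negative cell, cell 41, held 3.39 CPM from 9 counts, the median of the Gad1-negative cells was 0.607 CPM, and 3 of them held no Gad1 count. The cell left out, cell 17, held 15.8 CPM. These values chose the groups and are no finding. The start of Gad1 overlaps a non-coding RNA on the opposite strand, Gad1os, over 2055 bases, and no CA1 cell held a count for it.

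Genes of GABA synthesis, transport and breakdown other than Gad1 were for the most part high in cell 20, cell 35 or both and at 0 or under 1 CPM in cell 3, apart from Aldh5a1. Gad2, the other glutamate decarboxylase, had 2066, 4225 and 0 CPM in Gad1-positive cells 20, 35 and 3, against a lowest, median and highest value of 0, 0.193 and 115 CPM in the Gad1-negative cells. Only 1 Gad1-negative cell exceeded 10 CPM of Gad2, and that was cell 41. Over summed counts Gad2 stood at 2159 CPM (exact Poisson 95% interval 2137 to 2181.8) in the Gad1-positive group and 5.67 CPM (5.08 to 6.31) in the Gad1-negative group, a log2 ratio of 8.34. Abat, the transaminase that breaks GABA down, had 645, 897 and 0 CPM in cells 20, 35 and 3, against 0, 0.0817 and 5.604 CPM in the Gad1-negative cells as lowest, median and highest. Abat was thus above every Gad1-negative cell in 2 of the 3 Gad1-positive cells and without a count in cell 3.

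The vesicular carrier followed the same division, with exceptions among the Gad1-negative cells. Slc32a1 had 19.7, 909.9 and 0 CPM in cells 20, 35 and 3, and its lowest, median and highest values in the Gad1-negative cells were 0, 0 and 282 CPM. The groups overlapped, since Gad1-negative cells 16 and 41 held 282 and 72.8 CPM, more than cell 20. Aldh5a1, which completes GABA breakdown, was the only gene of this list at 10 CPM or more in cell 3, at 80.96 CPM, and it was highest of all in Gad1-negative cell 14, at 1248 CPM. Slc38a1, a glutamine carrier, was at most 1.90 CPM in the Gad1-positive cells and reached 297 CPM in Gad1-negative cell 16.

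**Figure D1:**
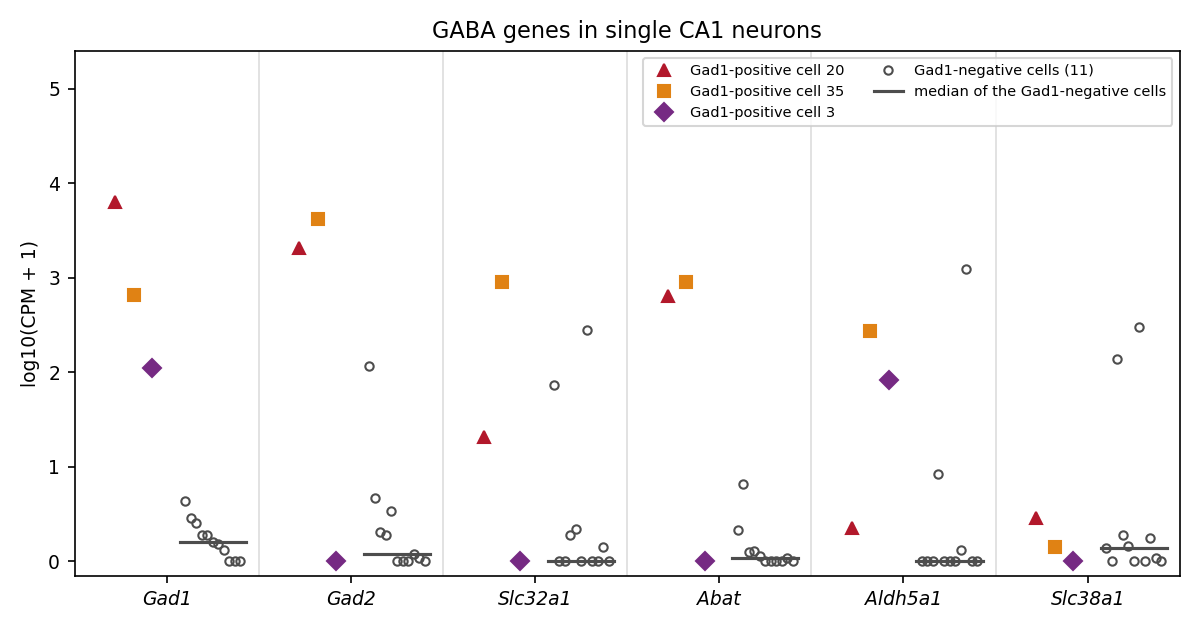
Level of Gad1, which chose the groups, and of 5 other genes of GABA synthesis, transport and breakdown in each cell, as log10(CPM + 1). Filled symbols are Gad1-positive cells 20, 35 and 3, open circles are the 11 Gad1-negative cells in the same order for each gene, and the bar is their median; cell 3 lies at 0 for Gad2, Slc32a1, Abat and Slc38a1, while cells 20 and 35 lie above 100 CPM for Gad2 and Abat.

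Of the 8 genes of this list besides Gad1, 7 had enough counts to be measured (at least 10 counts over both groups and a count in at least 3 cells). A log2 ratio of 1 or more in size, taken from the summed CPM plus 1, served as the threshold of difference. By it 4 of the 7 were higher in the Gad1-positive group and 1 was lower, while 29.2% of all 8139 measured genes were higher and 44.5% were lower. The median log2 ratio of the list was 1.83, against -0.57 for all measured genes. This median rested on few cells: it was 0.73 without cell 20, -0.47 without cell 35, 2.72 without Gad1-negative cell 14 and 5.53 without Gad1-negative cell 16. Within the cells of bcl2fastq2 it was 1.70, and within those of bcl2fastq 1.8.4, where cell 3 is the sole Gad1-positive cell, it was -0.90. Basecalling program and the difference between cell 3 and the other Gad1-positive cells cannot be told apart.

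The transcription factors that specify interneurons were found in single cells rather than across the Gad1-positive group. Dlx2, a homeobox factor of interneuron precursors, had 1986, 0 and 0 CPM in cells 20, 35 and 3, and at most 0.513 CPM in a Gad1-negative cell. It was thus high in cell 20 alone. Satb1, a chromatin organiser needed for somatostatin interneurons, was highest among the Gad1-positive cells in cell 35, at 338 CPM, but Gad1-negative cell 14 held 434 CPM. Cell 3 held no count of Dlx2 or Satb1 and its only factor of this list at 10 CPM or more was Bcl11b, which pyramidal neurons also carry, at 1793 CPM.

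Other factors of this list were highest in Gad1-negative cells. Npas1 had no count in any Gad1-positive cell, against 1223 and 143 CPM in Gad1-negative cells 29 and 41, and was at least 98.1-fold lower in the Gad1-positive group (floor of 3 counts over the group). Nr2f2, a factor of caudally derived interneurons, was highest in Gad1-negative cell 16, at 493 CPM, against 0.126, 18.4 and 4.12 CPM in cells 20, 35 and 3. Of 12 measured factors 4 were higher and 3 lower by the threshold, with a median log2 ratio of -0.21, which was -1.36 without cell 20 and 0.75 without Gad1-negative cell 15.

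Peptides and calcium-binding proteins set the Gad1-positive cells apart from each other. Sst, which encodes somatostatin, had 0, 4751 and 0 CPM in cells 20, 35 and 3, and its highest Gad1-negative value was 137 CPM in cell 41. Cell 35 also held Reln, a secreted matrix protein of interneurons, at 437 CPM, Igf1 at 652 CPM and Ndnf, a secreted neurotrophic factor, at 92.5 CPM. Ndnf had no count in any Gad1-negative cell and was at least 506-fold higher in the Gad1-positive group against the floor of 3 counts, through cell 35 alone. With counts in that cell only, Ndnf was not a measured gene, since a count in at least 3 cells was required. The fold describes cell 35 and not the group. Tac1, the precursor of substance P, had 1075, 0 and 0 CPM in cells 20, 35 and 3, and at most 0.49 CPM in a Gad1-negative cell.

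Not every gene of this list followed Gad1. Pvalb, the parvalbumin gene, had 8.22, 135 and 638 CPM in cells 20, 35 and 3, so that the Gad1-positive cell without Gad2 held the most, and Gad1-negative cell 14 held 549 CPM. Cck, which encodes cholecystokinin and is also found in pyramidal neurons, was highest among the Gad1-positive cells in cell 3, at 1707 CPM, and 8 of the 11 Gad1-negative cells held at least 10 CPM. Npy, Penk, Crh, Nts and Calb1 had no count in any Gad1-positive cell. Npy reached 509 CPM in Gad1-negative cell 14 and Nts reached 2549 CPM in Gad1-negative cell 18. Reln, too, was highest in a Gad1-negative cell, at 2369 CPM in cell 41. Of 13 measured genes 5 were higher and 6 lower by the threshold, and the median log2 ratio of -0.11 became -4.08 without cell 35.

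Receptors and channels of interneurons were divided in the same way. Kcnc1, a potassium channel subunit of fast-firing interneurons, had 29.96, 754 and 0 CPM in cells 20, 35 and 3, and 0, 0.579 and 228 CPM in the Gad1-negative cells as lowest, median and highest. Kcnip1, a potassium channel partner, had 865 CPM in cell 35 and no count in cells 20 and 3, and its highest Gad1-negative value was 495 CPM in cell 41. Grm5, a metabotropic glutamate receptor, was highest among the Gad1-positive cells in cell 20, at 3794 CPM, while Gad1-negative cell 5 held 1348 CPM. Cacna2d2, an auxiliary calcium channel subunit, had 1351, 189 and 0 CPM in cells 20, 35 and 3, and at most 5.604 CPM in a Gad1-negative cell.

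Rab3b, a vesicle GTPase, was the gene of this list whose groups did not overlap, which was so for 0.455% of all measured genes. It had 4.93, 699.6 and 582 CPM in cells 20, 35 and 3, against a highest Gad1-negative value of 0.649 CPM. In cell 20, though, the value was close to the Gad1-negative range. Grik1, a kainate receptor subunit of interneurons, lay at the other extreme: it had no count in any Gad1-positive cell, 31454 CPM in Gad1-negative cell 41 and at most 9.34 CPM elsewhere. Of 17 measured genes 10 were higher and 5 lower, with a median log2 ratio of 1.20, which was -1.16 without cell 20 and 2.53 without Gad1-negative cell 41.

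Gad1-negative cell 41, with 3.39 CPM of Gad1, carried as many interneuron genes as a Gad1-positive cell. Of 77 genes in the 4 interneuron lists, 18 were at 10 CPM or more in cell 41, the number in Gad1-positive cell 20. Gad1-positive cells 35 and 3 held 24 and 6, against 1 to 11 in the other 10 Gad1-negative cells. Cell 41 came from 2 libraries of the same title, and both held these genes: Gad2 was at 109.1 and 121.1 CPM, Slc32a1 at 73.3 and 72.4 CPM, and Grik1 at 31052 and 31815.5 CPM. Its Slc17a7 level was 0.754 CPM, but other excitatory markers were high in it, with Neurod2 at 2397 CPM and Nrgn at 2361 CPM. Its excitatory list summed to 6328 CPM, above the Gad1-negative median of 5941 CPM. Of the 22 excitatory markers 6 reached 10 CPM in it, against a Gad1-negative median of 10. Since both libraries share the amplified RNA of a cell as far as their titles tell, their agreement covers library preparation and sequencing only.

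The excitatory markers Slc17a7 and Camk2a separated cell 3 from the other Gad1-positive cells. Slc17a7, the vesicular glutamate carrier of pyramidal neurons, had 0.126, 0 and 340.1 CPM in cells 20, 35 and 3, against 0, 2.44 and 794 CPM in the Gad1-negative cells as lowest, median and highest. Camk2a, the calcium and calmodulin dependent kinase of pyramidal neurons, had 21.7, 1.28 and 431 CPM in cells 20, 35 and 3, against 0, 165 and 1745 CPM in the Gad1-negative cells. For both genes cell 3 lay within the upper Gad1-negative range, while cells 20 and 35 lay below the Gad1-negative median. Nrgn, a calmodulin-binding protein of dendritic spines, had 499.7, 140.3 and 1185 CPM in cells 20, 35 and 3, all within the Gad1-negative range of 0 to 2361 CPM.

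Cell 20 held pyramidal factors beside its GABA genes. Neurod6, a factor of pyramidal neurons, had 1417, 0 and 1445 CPM in cells 20, 35 and 3, and 10 of the 11 Gad1-negative cells were below 10 CPM, the exception being cell 14 at 1519.5 CPM. Tbr1, a factor of glutamatergic projection neurons, had 1364, 0 and 0 CPM in cells 20, 35 and 3, and reached 1985 CPM in Gad1-negative cell 5. Hpca, the calcium sensor hippocalcin, had 1203, 0.214 and 2106 CPM in those cells, against 0, 20.7 and 1259 CPM in the Gad1-negative cells. Cell 20 thus held Gad1, Gad2 and Abat together with Neurod6, Tbr1 and Hpca, whereas cell 35 had no count of Neurod6 or Tbr1. Whether RNA of more than 1 cell was collected into a pipette was not tested.

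Genes that mark pyramidal neurons of the CA1 field were found mostly in cell 3 within the Gad1-positive group. The summed level of the excitatory list was 11228 CPM in cell 20, 2203 CPM in cell 35 and 18182 CPM in cell 3, against a lowest, median and highest value of 2253, 5941 and 11557 CPM in the Gad1-negative cells, so that cells 20 and 3 stood above that median and cell 35 below the whole range. Of 16 CA1 field genes, 9 were at 10 CPM or more in cell 3, 1 in cell 20 and 4 in cell 35, against 0 to 8 in the Gad1-negative cells. Fibcd1, a membrane protein, had 0, 0 and 287 CPM in cells 20, 35 and 3, Ociad2 had 0, 3.85 and 1279.9 CPM and Dkk3, a secreted Wnt modulator, had 0, 0 and 838 CPM. In the Gad1-negative cells Fibcd1 reached 159 CPM, Ociad2 828 CPM and Dkk3 1078 CPM. Spink8, a protease inhibitor, was at 933 CPM in cell 3 and at most 2.04 CPM in a Gad1-negative cell. Cell 35 held Wfs1, an endoplasmic reticulum protein, at 540.3 CPM, and Mpped1, a phosphoesterase, at 29.98 CPM.

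By the threshold, 7 of 19 measured excitatory markers (36.8%) were higher and 6 (31.6%) lower in the Gad1-positive group, beside 29.2% and 44.5% of all measured genes. Their median log2 ratio was 0.17, which was -0.66 with TMM scaling and -1.27 with DESeq2 scaling. None of 12 measured CA1 field markers was higher and 5 were lower, with a median of -0.82. The share lower, 41.7%, was thus close to that of all measured genes. Without cell 3 the medians of the excitatory and CA1 field markers were -1.25 and -5.13. Within the cells of bcl2fastq2 they were -1.44 and -5.325, and within those of bcl2fastq 1.8.4 they were 0.78 and -0.38.

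**Figure D2:**
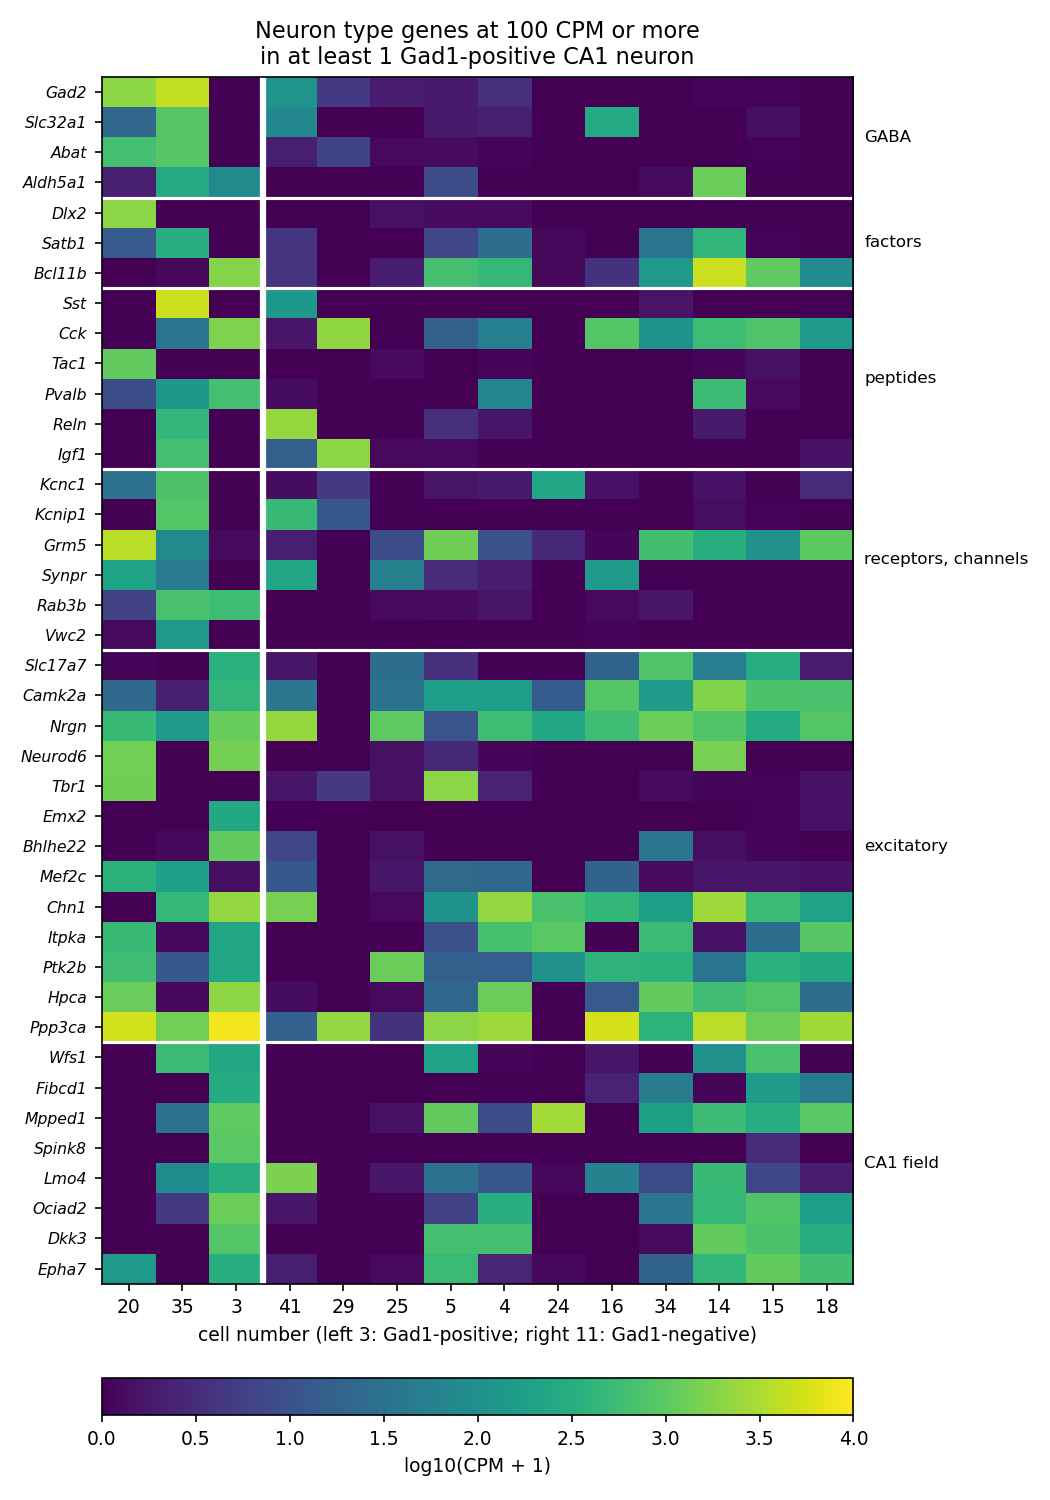
Level of interneuron, excitatory and CA1 field genes that reached 100 CPM in at least 1 Gad1-positive cell, as log10(CPM + 1) on the colour scale. Columns are cells by number, with the 3 Gad1-positive cells left of the white line and the 11 Gad1-negative cells right of it. Of the GABA genes, Gad2 and Abat are bright in cells 20 and 35, while Slc32a1 and Aldh5a1 are brighter in cell 35 than in cell 20. The CA1 field genes are bright in cell 3 and in several Gad1-negative cells.

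Genes at 10 CPM or more were also counted in each cell. Cells 20 and 35 each held 10 of the 38 excitatory and CA1 field genes (26.3%), beside 18 and 24 of the 77 interneuron genes (23.4% and 31.2%). They also had the most genes at 10 CPM or more over the whole table, 2203 and 2468, against 681 to 2131 in the Gad1-negative cells. Cell 3 held 22 of the 38, the most of any cell, beside 6 interneuron genes. Among the Gad1-negative cells, cells 4, 5, 14, 15, 18 and 34 held 16 to 20 of the 38 and 6 to 10 interneuron genes, while cells 24, 25 and 29 held 1 to 9 of the 38. In cell 20 the pyramidal share was thus slightly above the interneuron share, and in cell 35 below it. The markers of cell 3, at 57.9% of the pyramidal and 7.79% of the interneuron genes, went against calling it an interneuron.

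**Figure D3:**
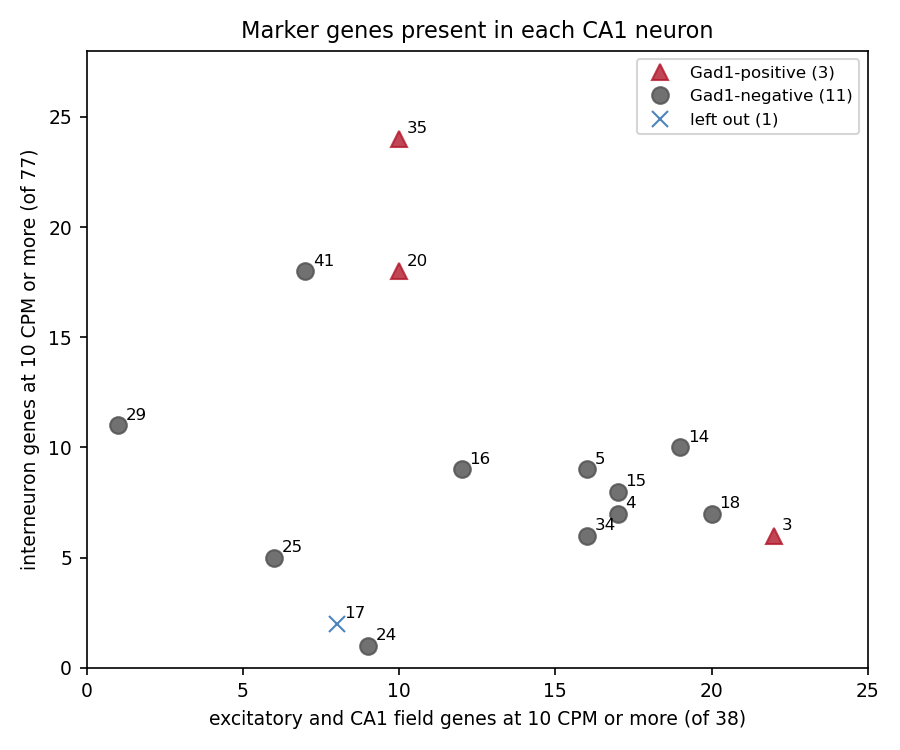
Number of interneuron genes (y axis, of 77) and of excitatory and CA1 field genes (x axis, of 38) at 10 CPM or more in each CA1 neuron, labelled by cell number. Triangles are the 3 Gad1-positive cells, circles the 11 Gad1-negative cells and the cross is the cell left out; Gad1-positive cell 3 lies at 22 and 6, beside Gad1-negative cells, and Gad1-negative cell 41 lies at 7 and 18, beside cells 20 and 35.

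Most genes present in the Gad1-positive cells were present in a single one of them. Of 4493 genes at 10 CPM or more in at least 1 of them, 67.3% were so in a single cell and 355 in all 3. Cells 20 and 35 shared 860 such genes, 39.04% of those of cell 20 and 34.8% of those of cell 35. The median correlation of log2 CPM across genes, at equal depth, was 0.135 between Gad1-positive cells (3 pairs), 0.116 between cells of different groups (30 pairs) and 0.137 between Gad1-negative cells (45 pairs). These values describe single cells amplified by the same protocol, and genes are not independent replicates.

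With all cells of a group summed, 2379 measured genes were higher and 3620 were lower in the Gad1-positive group. Of these calls 39.7% were higher, and the share was 26.7% with DESeq2 scaling (1633 higher and 4489 lower). TMM and DESeq2 scaling moved the median of all genes to -1.05 and -1.45, so a list's median is to be read against that of all genes. Over the 29 lists, 9 had a median above 0 as reported, 5 with TMM scaling and 3 with DESeq2 scaling, while 21, 18 and 17 lay above the median of all genes. Genes in which all 3 Gad1-positive cells exceeded all 11 Gad1-negative cells numbered 37, or 0.455% of the measured genes, and those in which all lay below numbered 0, or 0%. These 2 numbers cannot be compared with each other. Lying below requires a count in every one of the 11 Gad1-negative cells, lying above only in the 3 Gad1-positive cells. With TMM and DESeq2 scaling 26 and 14 genes did not overlap. In several of the 37 the gap was small, with the lowest Gad1-positive cell 1.02 times the highest Gad1-negative cell for Hint1 and 238 times for the transcript listed as X1300018J18Rik.

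The members of the 37 described next were picked after their values were seen. Snap25, a membrane fusion protein of synaptic vesicles, had 3504, 2703 and 2190.3 CPM in cells 20, 35 and 3, against 1.03, 446 and 1705 CPM in the Gad1-negative cells as lowest, median and highest. Every cell but Gad1-negative cell 25 held more than 10 CPM of it, so its difference was one of level. The lowest Gad1-positive cell was 1.28 times the highest Gad1-negative cell, and with DESeq2 scaling Snap25 overlapped between the groups. Anks1b, a postsynaptic protein, had 511, 779.7 and 2227 CPM in cells 20, 35 and 3, against a median of 113 and a highest value of 377 CPM in the Gad1-negative cells. Tspan7, a tetraspanin of neuronal membranes, had 1821, 256 and 2906 CPM, against a median of 1.98 and a highest value of 122 CPM.

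Of the 29 genes of the respiratory chain list, 2 did not overlap between the groups in CPM, Ndufb3 and Atp5j, beside 0.455% of all measured genes. Ndufb3 is a subunit of complex I, as are Ndufv2 and Ndufs3, which are in no list, and Atp5j is a subunit of ATP synthase. Ndufb3 had 223, 847 and 1562 CPM in cells 20, 35 and 3, against at most 19.2 CPM in a Gad1-negative cell. Ndufv2 had 184, 238 and 313 CPM, against at most 9.01 CPM. In both subunits the median of the Gad1-negative cells was at or near 0. Ndufs3 had 105, 116 and 18.7 CPM, against at most 7.88 CPM. Atp5j had 1432, 701 and 1682 CPM, against at most 576 CPM. Its lowest Gad1-positive cell was only 1.22 times its highest Gad1-negative cell, and with TMM or DESeq2 scaling its groups overlapped. Idh3g, a subunit of a citric acid cycle dehydrogenase, had 90.6, 756 and 391 CPM, against at most 25.1 CPM in a Gad1-negative cell.

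The list of 29 nuclear genes of the respiratory chain was present more completely in the Gad1-positive cells, cell 3 included. At 10 CPM or more, 21, 25 and 24 of the 29 were present in cells 20, 35 and 3, against 6 to 19 in the Gad1-negative cells, and these ranges did not overlap. With each cell thinned to 1000000 counts and 5 counts required, 23, 25 and 24 were present in cells 20, 35 and 3, against 6 to 20 in the 10 Gad1-negative cells deep enough. Over all genes, those at 10 CPM or more numbered 2203, 2468 and 1645 in cells 20, 35 and 3, against 681 to 2131 in the Gad1-negative cells, so that cell 3 was not above them in gene number. In summed CPM 13 of 29 were higher and 4 lower, with a median log2 ratio of 0.89, and the same median was -0.33 without cell 35 and -0.56 with DESeq2 scaling. The summed level of the list overlapped, at 14230.1 to 27950.1 CPM in the Gad1-positive cells and 1322 to 23942 CPM in the Gad1-negative cells.

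**Figure D4:**
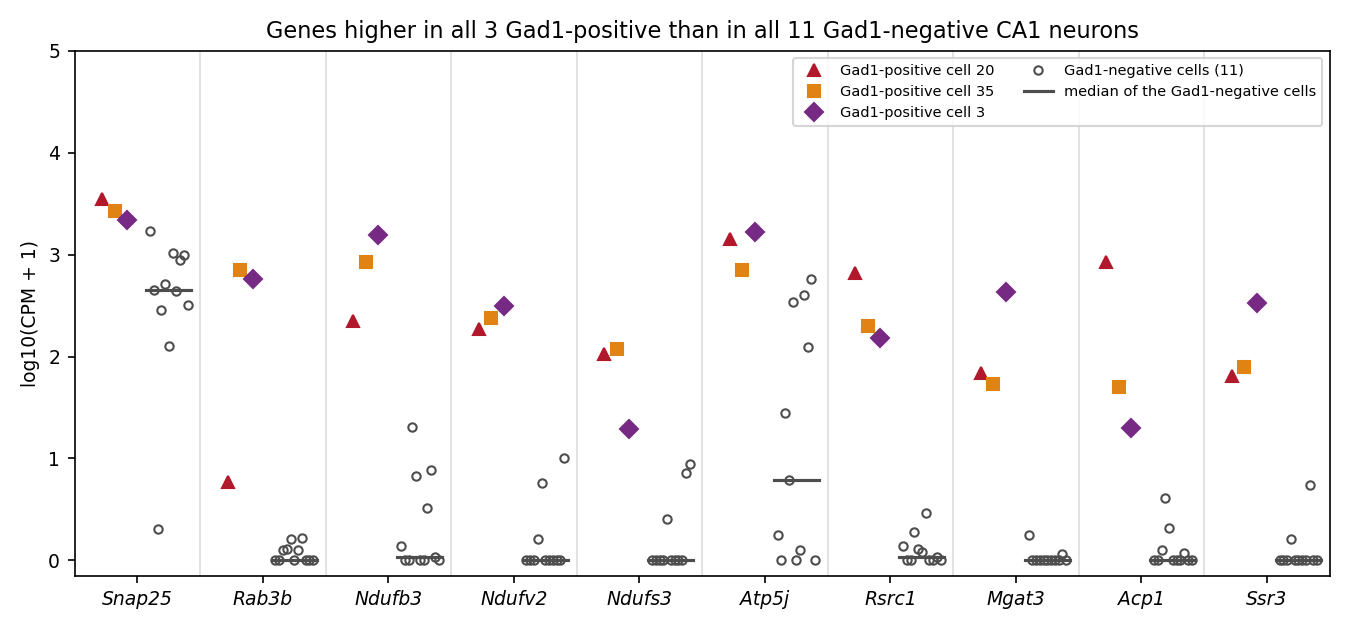
Level of 10 of the 37 genes in which all 3 Gad1-positive cells exceeded all 11 Gad1-negative cells, as log10(CPM + 1). Filled symbols are Gad1-positive cells 20, 35 and 3, open circles the Gad1-negative cells and the bar their median; most of these genes were near 0 in the Gad1-negative cells, whereas Snap25 was present in nearly all of them.

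The 15 genes named by rule as higher in the Gad1-positive group were ranked by their difference in detection, which meant at least 5 counts after thinning to 1000000. That ranking fixed their detection in all 3 Gad1-positive cells and in 0 or 1 of 10 Gad1-negative cells, and their values are a description. Rsrc1, a splicing regulator, had 653, 196 and 152 CPM in cells 20, 35 and 3, against at most 1.92 CPM in a Gad1-negative cell. Mgat3, which adds the bisecting sugar to N-glycans, had 68.01, 52.5 and 429 CPM, against at most 0.754 CPM. Dpy19l1, a protein mannosyltransferase, had 309, 106 and 69.3 CPM, against at most 1.89 CPM.

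Ssr3, of the protein translocon, had 62.8, 77.95 and 331 CPM in cells 20, 35 and 3, against at most 4.44 CPM in a Gad1-negative cell. Acp1, a tyrosine phosphatase, had 836, 49.04 and 18.9 CPM, against at most 3.05 CPM. Atxn7l3 (chromatin deubiquitination), Zfp644 (a zinc finger protein), Cfl2 (an actin-severing cofilin), Ppp2r5c (a phosphatase regulator), Klf6 (a transcription factor), Aurkaip1 (mitochondrial ribosome), Kpna6 (nuclear import) and both Ndufv2 and Ndufs3 had log2 ratios of 1.68 to 6.98. Lynx1, a membrane-bound modulator of nicotinic receptors, had 14.5, 78.4 and 317 CPM in cells 20, 35 and 3, and 163 CPM in Gad1-negative cell 15, and its log2 ratio was 1.62.

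The 15 genes named as lower were ranked in the same way, which fixed their detection in none of the 3 Gad1-positive cells and in 7 or 8 of 10 Gad1-negative cells. Unc13a, a priming factor of synaptic vesicles, had 1.26, 0 and 0 CPM in cells 20, 35 and 3, against 0, 61.95 and 1321 CPM in the Gad1-negative cells as lowest, median and highest. Prkca, a protein kinase C, had 0, 0 and 0.242 CPM in cells 20, 35 and 3, against 0, 168 and 3676 CPM in the Gad1-negative cells. Both genes were thus nearly absent from the Gad1-positive cells and common, though not general, in the others. Miat, a long non-coding RNA of neurons, had 0, 0.428 and 0 CPM, against 0.256, 947 and 2426 CPM. Baiap2, a postsynaptic scaffold protein, had 2.91, 0 and 0 CPM, against 0, 173 and 579 CPM. In each of these 4 genes some Gad1-negative cells were as low as the Gad1-positive cells, so the groups overlapped.

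The remaining genes named as lower included Enc1, an actin-binding protein of neurons, Mical2, an actin oxidase, Hnrpdl, an RNA-binding protein, Camta2 and Top2b, which act in the nucleus, Eml5, Dennd5a and Trank1. Mapk14, a stress-activated kinase, had no count in the Gad1-positive cells and was at least 907-fold lower there against the floor of 3 counts. Laptm5 and Tyrobp, which mark microglia in the brain, had no count in any Gad1-positive cell, against medians of 103 and 26.6 CPM and highest values of 8124 and 1108 CPM in the Gad1-negative cells, both in cell 25.

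Microglial genes were lower in the summed Gad1-positive group, but single cells crossed the grouping. Of 14 microglial markers 13 were lower and 0 higher in the Gad1-positive group, with a median log2 ratio of -5.42, which was -9.03 without cell 3. Their summed level was 0.253 CPM in cell 20, 6.85 CPM in cell 35 and 5230.1 CPM in cell 3, against 0.754, 1264 and 20486 CPM in the Gad1-negative cells as lowest, median and highest. Cell 3 was thus above the Gad1-negative median, while Gad1-negative cells 41, 18 and 5 held only 0.754, 3.38 and 18.6 CPM. In cells 20 and 35 the defining markers Cx3cr1, Csf1r, P2ry12, Tmem119 and Tyrobp were at 0. Cell 3 lacked Tmem119 and Tyrobp as well, but held Ctss at 4049 CPM, Trem2 at 406 CPM and Csf1r at 159 CPM. Without the 9 cells at 100 CPM or more of these markers, which left cells 20 and 35 against Gad1-negative cells 5, 18 and 41, the GABA list had a median of 4.66, the excitatory list -1.36 and the respiratory chain 3.63, against 0.03 for all 4037 genes then measured. The part of microglial RNA in the other results was not tested.

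Of 21 cytosolic ribosomal protein genes 16 were lower and 1 was higher in the summed Gad1-positive group, against 44.5% lower and 29.2% higher among all measured genes, with a median log2 ratio of -1.84. With the mean of the CPM of cells, which weighs cells equally, this median was -1.15. The summed level of the list overlapped between the groups. Its lowest, median and highest values were 1468, 16216 and 29006 CPM in the Gad1-positive cells. In the Gad1-negative cells they were 1236, 15565 and 73155 CPM. The cells differed within the group: 10, 19 and 21 of the 21 genes were at 10 CPM or more in cells 20, 35 and 3, against 5 to 21 in the Gad1-negative cells. Rplp1, a protein of the large subunit, had 12.4, 1723 and 3201 CPM in cells 20, 35 and 3, against 1.82, 1609 and 11161 CPM in the Gad1-negative cells. The summed level of the list was highest in Gad1-negative cells 25 and 15, at 73155 and 68261.5 CPM, with 15039.5 and 13909 CPM of microglial markers. Cell 16, with the most microglial markers, held 30993 CPM of ribosomal genes, and cell 4, with 543 CPM of microglial markers, held 32059 CPM. Without the 9 cells with microglial markers the median log2 ratio of the ribosomal list was 0.85.

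Of 12 astrocyte markers 7 were lower (58.3%) and 2 higher (16.7%), beside 44.5% and 29.2% of all measured genes, and their median log2 ratio was -2.24. Their median summed level was 673 CPM in the Gad1-positive cells and 481 CPM in the Gad1-negative cells. The median log2 ratio was -0.14 without Gad1-negative cell 34, which held 14518 CPM of them. Without the cells with microglial markers it was 3.99. S100b, a calcium-binding protein of glia, had 1339, 308 and 0 CPM in cells 20, 35 and 3 and reached 3748 CPM in cell 34, while Gfap, the astrocyte filament, had no count in any Gad1-positive cell. Cell 35 held some genes of the oligodendrocyte lineage, with Lhfpl3 at 326 CPM and Pdgfra, the receptor of precursors, at 57.6 CPM. Cell 3 held Mbp, a myelin protein, at 631 CPM. None of 12 endothelial markers reached 10 CPM in any cell.

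The glutamate receptor, GABA receptor and voltage-gated channel lists all had medians below 0, at -3.37 to -0.24. They lay on both sides of -0.57, the median of all genes. Of 13 measured AMPA receptor genes 4 were higher and 7 lower (median -1.25), of 11 NMDA and kainate subunits 3 were higher and 5 lower (-0.46), and of 10 GABA receptor subunits 3 were higher and 3 lower (-0.24). The AMPA median was -1.93 without cell 35 and -0.06 without Gad1-negative cell 41, and the NMDA and kainate median was -3.44 without cell 20 and 0.26 without Gad1-negative cell 41. Gria2, the AMPA subunit that limits calcium entry, had 510.0, 1023 and 355 CPM in cells 20, 35 and 3, against 10.3, 3457 and 6897 CPM in the Gad1-negative cells, so all 3 lay below the Gad1-negative median. Cacng2, the AMPA receptor partner stargazin, had 0.253, 3646 and 1.70 CPM in cells 20, 35 and 3, and Grin2a, an NMDA receptor subunit, had 0, 952 and 0 CPM; both were high in cell 35 alone.

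Voltage-gated calcium channel genes had the lowest median of the channel lists, at -3.37, with 4 of 13 higher and 8 lower. This median was -4.84 without cell 20, -1.79 without Gad1-negative cell 34 and -0.42 without the cells with microglial markers. Cacna1g and Cacna1h, pore subunits of low-threshold channels, were at most 0.242 and 0.214 CPM in the Gad1-positive cells and reached 611 and 569 CPM in Gad1-negative cells 15 and 14. Cacna1a, the pore subunit of presynaptic channels, had 2059.8, 0.214 and 0 CPM in cells 20, 35 and 3, and Cacnb4 had 3722, 688 and 0 CPM. Of 10 sodium channel genes 3 were higher and 4 lower, and of 25 potassium channel genes 6 were higher and 9 lower.

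Of 24 presynaptic genes 10 were higher and 6 lower (median 0.56, -0.26 with TMM and -0.87 with DESeq2 scaling). The presynaptic median was -0.11 without cell 35, -0.34 without cell 3 and 1.28 without Gad1-negative cell 41. With the mean of the CPM of cells, which weighs cells equally, it was -0.20. Of 20 pan-neuronal markers 11 were higher and 2 lower (1.04, 2.03 without Gad1-negative cell 15). The pan-neuronal median changed sign, to -0.41, with DESeq2 scaling, under which the median of all genes was -1.45. Cplx1, the complexin of fast synapses, had 0, 4558 and 133 CPM in cells 20, 35 and 3, against a median of 6.92 and a highest value of 659.7 CPM in the Gad1-negative cells. Rims2, an active zone protein, had 443, 174 and 0 CPM, against at most 0.513 CPM. Of 23 postsynaptic genes 5 were higher and 10 lower (-0.46).

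Immediate early genes, which neuronal activity and tissue handling induce, had a median of -1.89 with 6 of 17 higher and 9 lower, but the median was 0.18 without Gad1-negative cell 5 and 0.14 without Gad1-negative cell 18. Egr1 had 854, 23.3 and 67.9 CPM in cells 20, 35 and 3, against 0, 9.998 and 7261 CPM in the Gad1-negative cells, and Fos had 95.1, 0.428 and 1.21 CPM, against 0, 1.54 and 2415 CPM. Arc and Bdnf were above 1 CPM in cell 3 alone among the Gad1-positive cells, at 383 and 487 CPM. Of 15 heat shock genes 6 were higher and 3 lower (0.58, -0.26 with TMM and -0.87 with DESeq2 scaling), of 16 genes of glycolysis 4 and 5 (-0.27), and of 28 genes of calcium and calmodulin signalling 8 and 9 (0.02, -0.55 with TMM and -1.13 with DESeq2 scaling). The heat shock median was -0.84 without cell 20 and -0.19 without cell 3, and the glycolysis median was -2.39 without cell 35. The 4 measured metabotropic glutamate receptors divided evenly, and of 9 measured CA3 and dentate markers 2 were higher and 4 lower.

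**Figure D5:**
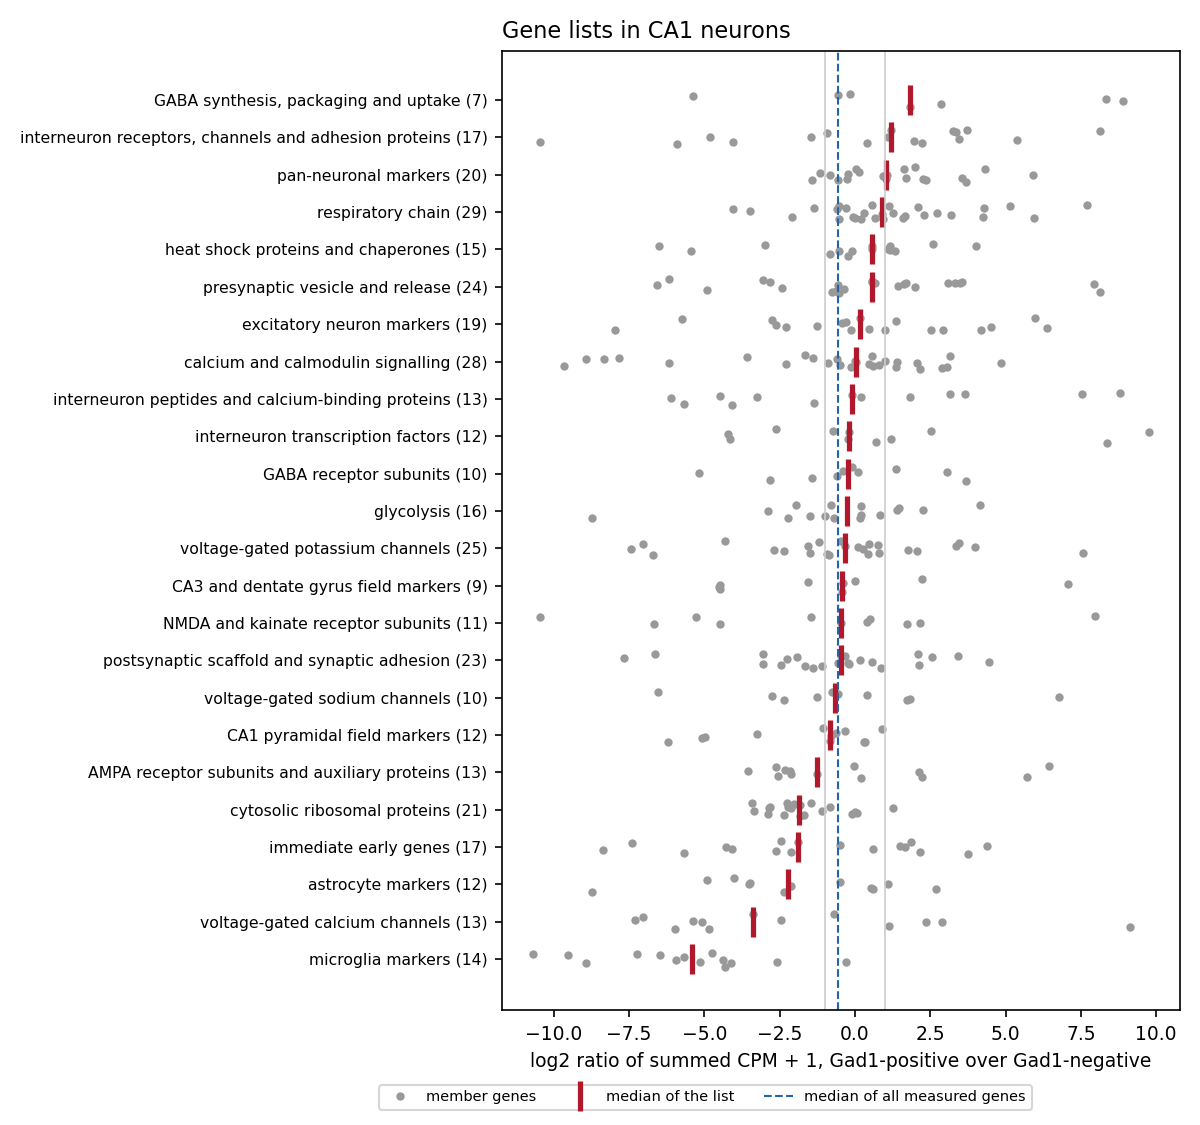
Log2 ratio of the summed CPM plus 1, Gad1-positive over Gad1-negative CA1 neurons, for the measured members (grey points) and the median (red bar) of each list with at least 7 measured members, whose number is in brackets. The dashed line is the median of all measured genes, -0.57, and grey lines mark the threshold of 1 in size; the GABA list lies at the top with 1.83 and the microglial list at the bottom with -5.42.

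The same Gad1 limits applied to the 22 cortical slice neurons of the series gave 5 Gad1-positive cells, at 605 to 8713 CPM of Gad1, and 15 Gad1-negative cells, at up to 2.02 CPM. There 26.1% of 10852 measured genes were higher and 42.5% lower in the Gad1-positive group, with a median of -0.49. In cortex 5 of 8 GABA genes were higher and 0 lower (median 2.20), 8 of 11 interneuron factors were higher and 0 lower (3.14), and 3 of 20 excitatory markers were higher and 15 lower (-2.09). The corresponding CA1 counts were 4 and 1 of 7, 4 and 3 of 12, and 7 and 6 of 19. The difference between the regions was not tested. Gad2 stood at 2353 CPM in the summed Gad1-positive and 0.442 CPM in the summed Gad1-negative cortical cells. Microglial markers were lower in 14 of 14 in cortex (median -6.77), against 13 of 14 in CA1. Of 21 interneuron receptor genes measured in cortex 8 were higher and 9 lower (0.02), against 10 and 5 of 17 in CA1. Most genes named in CA1 kept the sign of their log2 ratio in cortex, some of them below the threshold, but not all did. Dpy19l1, Zfp644, Klf6 and Kpna6, higher in CA1, were lower in cortex (log2 ratios -6.55, -5.48, -5.15 and -4.48). Each was at 10 CPM or more in 2 to 5 of the 15 Gad1-negative cortical cells and in at most 1 Gad1-positive cell. Rsrc1 and Mgat3 were higher in both regions by summed CPM. In cortex, though, Rsrc1 was at 10 CPM or more in only 2 of the 5 Gad1-positive and 3 of the 15 Gad1-negative cells. For Mgat3 these numbers were 1 and 2. Prkca and Eml5, lower in CA1, were higher in cortex by summed CPM (2.64 and 1.30). Prkca was at 10 CPM or more in 3 Gad1-positive and 1 Gad1-negative cortical cells. Eml5 was so in 1 of the 5 Gad1-positive but 8 of the 15 Gad1-negative cortical cells, the opposite of its summed ratio. Miat and Mapk14 were lower in both regions.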

How the data were processed

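RNA of single patched cells was sequenced from libraries made with the TruSeq Stranded kit, per the labels. The values are whole-number read counts for 21956 genes in 158 libraries, deposited without normalization; the authors made them with STAR and HTSeq against mm10 (GRCm38), per the submitters' processing notes. Their versions, strand setting and annotation: not given in the sources used here. Coordinates are from RefSeq genes of GRCm38.p6.

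Libraries of cells 4 and 41 with an added b were summed (r of 0.973 and 0.964 across genes, against at most 0.457 with another CA1 library). Each group's counts were summed and divided by its total, so cells with more counts weighed more. The deepest Gad1-positive cell was cell 20, at 7910562 counts. Gad1-negative cells 16 and 15 were the deepest of their group, at 14594389 and 12243698 counts, and held 20486 and 13909 CPM of microglial markers. Genes were measured with 10 counts over both groups and a count in 3 cells. A pseudocount of 1 CPM entered the log2 ratios, and intervals cover counting error only. For detection, cells were thinned to 1000000 counts (seed 7), which left out cell 29. Of 523 list members 520 were in the table.

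Named genes, 15 a direction, reached 10 CPM in either group and differed at least 2 times (log2 of 1) in summed CPM and in the mean of cells, in the direction of detection; predicted genes were passed over. They were ranked by the difference in detection and then by the difference of mean log2(CPM + 1); 1681 higher and 1892 lower genes passed before ranking. Members of lists are examples; some are counted in the lists but not reported here by name. The groups, lists and rules were chosen with earlier results of these data known. Alternatives were other weights, edgeR 4.0.16 TMM and DESeq2 1.42.0 scaling, pseudocounts, filters, Gad1 limits, and subsets of cells or libraries. The script was tested on simulated data.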

Additional observations from a re-analysis of the deposited data

Results flagged for a closer look

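Cell 17, which was in neither group, held Gad1 at 15.8 CPM, above every Gad1-negative cell and below every Gad1-positive cell (38 counts). Its excitatory neuron markers summed to 13327 CPM, above the highest Gad1-negative cell, at 11557 CPM, but 6647 CPM of that was Neurod2, a factor of excitatory neurons. Only 6 of the 22 excitatory markers reached 10 CPM in it, against a median of 10 in the Gad1-negative cells. It held none of the 8 other GABA genes at 10 CPM or more, and 72.5% of its counts fell on 50 genes, against 19.3% to 31.5% in the Gad1-positive cells and 28.2% to 56.4% in the Gad1-negative cells.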

How the results depend on the processing

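Of 797 recomputed medians of the 29 lists, 87 (10.9%) changed sign, spread over 22 lists; 17 of these 87 belonged to lists with a reported median of at least 1 in size. Among 833 recomputed ratios of named genes 1 changed sign. Leaving out 1 cell at a time gave 40 to 204 genes without overlap. For a given gene, leaving out a cell can only keep or add a lack of overlap. This number could thus fall below the 37 of all cells only through the filter. Leaving out 1 cell also gave medians of -0.47 to 5.53 for the GABA list, -1.16 to 2.53 for interneuron receptors, -3.72 to 0.18 for immediate early genes and -3.45 to 6.50 for oligodendrocyte precursor markers. DESeq2 scaling left 14 genes without overlap and a pan-neuronal median of -0.41. With no filter, interneuron receptors stood at -0.024 and precursor markers at -0.072; with a filter of 50 counts and 5 cells, immediate early genes stood at 0.051. Within bcl2fastq2 libraries 239 of 6560 measured genes did not overlap. Within bcl2fastq 1.8.4 libraries cell 3 stood against cells 5, 15 and part of cell 4. There 1914 of 3081 measured genes did not overlap, 875 were higher and 1654 lower. Values were -0.90 for GABA, -3.56 for interneuron receptors, -0.17 for pan-neuronal, 1.88 for immediate early and 0.55 for astrocyte genes and -1.79 for Kpna6. Without cells holding microglial markers, 1606 of 4037 measured genes were lower (1634 higher) and 939 did not overlap. Ribosomal and astrocyte medians were then 0.85 and 3.99. Fewer cells and genes enter these subsets, and genes fail to overlap more readily between fewer cells. Their numbers without overlap therefore cannot be compared with the 37 of 8139 genes over all cells. Other causes were not tested. No paired analysis was possible because no value comes from a test and the replicate numbers of the cells pair nothing across the groups. Depth limits cell 29, with 535369 counts, where 3 counts are 5.604 CPM.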

Other observations

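Gad1-negative cells 29 and 16 also held interneuron genes. Cell 29, the shallowest with 535369 counts, held Npas1 at 1223 CPM, Igf1 at 2081 CPM, Cck at 2204 CPM and Cnr1, the cannabinoid receptor of cholecystokinin interneurons, at 459 CPM, with Gad2 at 3.74 CPM and no count of Slc17a7 or Camk2a. Cell 16, with 14594389 counts, held Slc32a1, Nr2f2 and Calb2 at 282, 493 and 266 CPM beside Camk2a at 845 CPM and 20486 CPM of microglial markers, and its Gad2 had no count. Cell 14, at 0 Gad1 counts, held Pvalb and Npy at 549 and 509 CPM together with Camk2a and Bcl11b at 1745 and 4717 CPM.

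Potassium channel genes differed between Gad1-positive cells 35 and 3. Kcna6, a delayed rectifier subunit, had 0, 771 and 14.8 CPM in cells 20, 35 and 3, against at most 1.07 CPM in a Gad1-negative cell. Kcnd2, an A-type channel subunit of pyramidal dendrites, had 0, 0 and 2113 CPM in cells 20, 35 and 3, and Kcnd3 had 0, 561 and 0 CPM.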
